A study of Mus musculus with 6 samples.

Results

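The FoxO transcription factors Foxo1 and Foxo3 and 7 genes known as their targets, Klf2, Il7r, Pik3ip1, Irs2, Txnip, Ccng2 and S1pr1, were examined in dendritic cells that had lost Map3k7. The 9 genes were listed by name and matched to every probe set of the array that carries their symbol. Probe sets of their own were found for 6 of the 9, in all 10 of the 45037 probe sets tested, among 17097 named genes. Il7r and Irs2 were named by no probe set in the annotation used here. Pik3ip1, an inhibitor of PI3-kinase, was named only together with the kinase Limk2 on shared probe sets, so no level is given for these 3 genes.

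The cells were CD11c+ dendritic cells, which present antigen to T cells, purified by flow cytometry from the spleens of C57Bl/6 mice. One group was wild-type (labelled WT) and the other carried the genotype labelled Map3k7CreER, a tamoxifen-inducible Cre used to delete Map3k7, which encodes the kinase TAK1. Both groups had received tamoxifen in vivo for 3 days. Each group had 3 samples, each measured on 1 Affymetrix array from total RNA. Which promoter or cell type drives the Cre is not given in the sources used here. Loss of Map3k7 in the dendritic cells, loss in other cells of the mouse and the Cre itself therefore cannot be told apart. Whether each sample was a separate mouse is not given in the labels. The p-values therefore reflect the spread of these samples, which may be technical, and 3 arrays per group limit their precision.

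FoxO proteins are switched off by growth factor and insulin signals: PI3-kinase activates AKT, AKT phosphorylates FoxO, and phosphorylated FoxO is held outside the nucleus by 14-3-3 proteins. When the signal falls, FoxO enters the nucleus and turns on genes for cell cycle exit, stress resistance, catabolism and cell death, together with Irs2 and other parts of the insulin pathway that restore sensitivity to the signal. In resting lymphocytes FoxO1 also sustains Klf2, S1pr1 and Il7r. Because FoxO activity is set largely by phosphorylation and location of the protein, the level of a FoxO mRNA is not a measure of FoxO activity.

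The 6 measurable genes did not move as a block. Klf2 fell in knockout cells by 0.67 on the log2 scale, a 1.59-fold lower signal. Txnip rose on 1 of its 2 probe sets, by 0.62. On Foxo3 every knockout array lay above every wild-type array on 2 of 3 probe sets, with differences of 0.59 and 0.58, without passing the threshold. Foxo1, S1pr1 and Ccng2 showed differences of -0.03, -0.02 and -0.13 on their brightest probe sets, with overlapping groups.

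Values are log2 signals made by the authors with RMA, and differences are knockout minus wild type, fitted with limma over all probe sets and called at a Benjamini-Hochberg adjusted p under 0.05. A gene is represented by its brightest probe set. By this rule 1 of the 6 genes was called, Klf2, lower in knockout cells, and 5 were not. Over all 17097 genes 1.67% were called, 1.08% higher and 0.591% lower, so a single call among 6 genes rests on few genes. At an unadjusted limma p under 0.05, 3 of the 6 genes and 16.4% of all genes passed. Counted as probe sets, 1 of the 10 was higher and 1 lower, against 0.804% and 0.391% of all probe sets. The groups did not overlap on 5 of the 10, 4 of them with the knockout above the wild type, against 17.5% of all probe sets. Those 5 belong to Foxo3, Txnip and Klf2 alone. All 10 lay at or above the median probe set, whereas the share over all probe sets takes in the dim ones, so the 2 are not like for like. The median difference of the 6 genes was -0.03, and that of all genes was -0.02. These genes and the lists below were chosen with earlier results of these data known. Their counts therefore do not test them as groups. Counts of the lists stand beside the same shares of all genes, 1.67% called and 16.4% at an unadjusted limma p under 0.05.

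**Figure D1:**
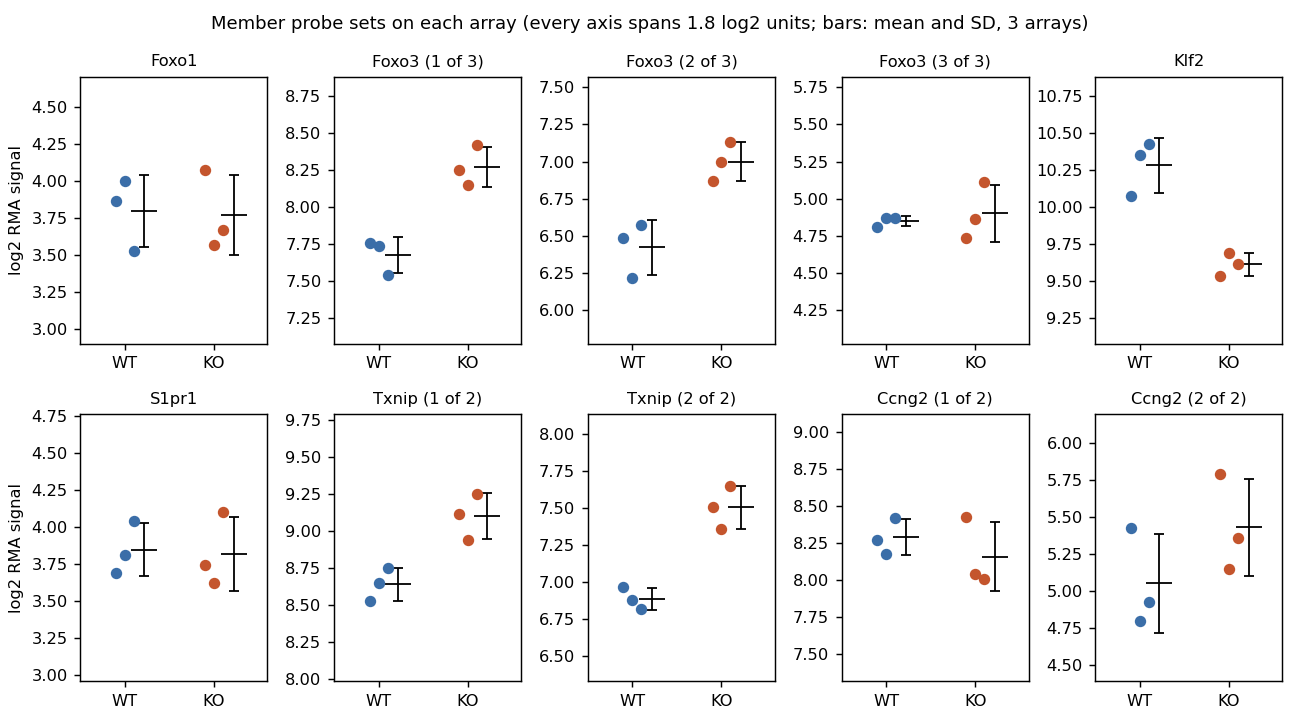
Log2 signal of each probe set of the 6 measured genes on every array, with wild-type arrays (WT) and Map3k7 knockout arrays (KO) side by side, points for single arrays and bars for the mean and SD of 3 arrays. The knockout points of Klf2 lie below all wild-type points, those of Txnip and of the 2 brighter Foxo3 probe sets lie above them, and those of Foxo1, S1pr1 and Ccng2 intermingle with them.

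Map3k7 itself served as the check of the labels. Of its 5 probe sets, 3 fell, with differences of -2.60, -3.25 and -2.34, a limma adjusted p of at most 0.0181 and no overlap of groups. The other two were near the array median. Dendritic cell markers were bright on all arrays: the 14 measured averaged 11.48 to 11.61 in wild-type arrays and 11.22 to 11.34 in knockout arrays, and 0 of them lay below 5. Every knockout average was below every wild-type one, and single markers are given with the other cell types. Array medians were 3.77 to 3.81, so a probe set near 4 is close to the median probe set and may stand for an unexpressed transcript. The arrays measured a bulk population, in which fewer cells expressing a gene and less RNA per cell cannot be told apart.

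Among the factors themselves, Foxo3 was the one with separate groups. Its brightest probe set read 7.76, 7.74 and 7.54 in the wild-type arrays and 8.25, 8.15 and 8.42 in the knockout arrays. All 3 knockout values were higher than all 3 wild-type values. The means were 7.68 ± 0.12 and 8.27 ± 0.14 (SD, n = 3 each), a difference of 0.59 (SE 0.11, 95% confidence interval 0.34 to 0.85) or 1.51-fold, with a limma adjusted p of 0.0563. A second probe set of the gene gave 6.48, 6.21 and 6.57 against 6.87, 7.00 and 7.13. Again the groups were separate, and the difference was 0.58 (SE 0.12, interval 0.29 to 0.87, limma adjusted p = 0.0797).

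The third Foxo3 probe set, dimmer than the others, did not show this. It read 4.81, 4.87 and 4.87 in wild-type arrays and 4.73, 4.86 and 5.11 in knockout arrays, with overlapping groups and a difference of 0.05 (SE 0.11, interval -0.22 to 0.31, limma adjusted p = 0.928). The knockout difference on the brightest probe set exceeded that on the third by 0.55, with complete separation of the arrays; 3 arrays against 3 cannot go below p = 0.1 in an exact permutation test, which is the two-sided value here, and it was 0.25 after adjustment over 5 pairs of probe sets. Which parts of the transcript the 3 probe sets read is not given in the annotation used here. Averaged over all probe sets of the gene, Foxo3 differed by 0.41 (limma adjusted p = 0.112).

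Foxo1, the family member best known from lymphocytes and liver, was close to the array median in both groups. Its single probe set read 3.87, 4.0 and 3.53 in wild-type arrays and 4.08, 3.57 and 3.67 in knockout arrays. High and low values occurred in both groups. The means were 3.80 ± 0.24 and 3.77 ± 0.27 (SD, n = 3 each), and the interval of the difference, -0.42 to 0.37, takes in changes of either sign (limma adjusted p = 0.975). Foxo4, the third family member with a probe set of its own, differed by 0.01 (limma adjusted p = 0.99), and Foxo6 was not analysed here.

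Klf2, a Krüppel-like factor that maintains quiescence in lymphocytes and restrains inflammatory activation in myeloid cells, was among the bright transcripts, above 95.6% of probe sets. It read 10.07, 10.35 and 10.42 in wild-type arrays and 9.53, 9.69 and 9.61 in knockout arrays. Every knockout array was lower than every wild-type array. The mean went from 10.28 ± 0.18 to 9.61 ± 0.08 (SD, n = 3 each), a difference of -0.67 (SE 0.12, interval -0.94 to -0.40, limma adjusted p = 0.0444). The call sits close to the threshold: with any 1 of the 6 arrays left out the difference stayed between -0.77 and -0.60 but the limma adjusted p was 0.0569 to 0.16, and after another quantile normalization it was 0.0534.

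S1pr1, the receptor for sphingosine 1-phosphate that lymphocytes need to leave lymphoid organs and a target of Klf2 there, lay near the array median. It read 3.69, 3.81 and 4.04 in wild-type arrays and 3.74, 3.62 and 4.10 in knockout arrays. The lowest and the highest value both came from knockout arrays. The difference was -0.02 (SE 0.15, interval -0.38 to 0.33, limma adjusted p = 0.974). Of the 10 other measured genes of sphingosine 1-phosphate reception and metabolism, 0 were called by limma and 0 had an unadjusted p under 0.05. Their median difference was -0.06. Of these, 6 lay below 5 and 3 at or below the median probe set, where a change may not be seen. The smallest p among the 10 belonged to Sgpp1, a phosphatase of sphingosine 1-phosphate, with a difference of 0.24 (limma adjusted p = 0.467).

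B cells also express Klf2, and their markers are given beside it. Of 9 measured B cell markers 6 lay below 5, and Ms4a1, Cd79b and Blk did not. By limma adjusted p 0 were higher and 0 lower. At an unadjusted p under 0.05, 0 were higher and 3 lower, against 16.4% of all genes in either direction. Their median difference was -0.25, and their summed linear signal was 569 to 711 in wild-type arrays and 447 to 515 in knockout arrays. The 3 lower ones were the complement receptor Cr2, which is dim and had the smallest p (-0.53, limma adjusted p = 0.0522; 0.0431 in the fit on probe set means), the kinase Blk (-0.57, 0.123) and Ms4a1, which encodes CD20. Ms4a1 was the bright one, at 8.60 ± 0.25 in wild-type arrays and 8.10 ± 0.28 in knockout arrays (SD, n = 3 each), with overlapping groups and a difference of -0.51 (SE 0.18, limma adjusted p = 0.275). T cell markers were dimmer, with 10 of 12 below 5 and summed signals of 265 to 288 and 230 to 280. The part of B cell RNA in the Klf2 difference was not tested.

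The start of Klf2 is shown because Klf2 was the one gene of the 6 called on its brightest probe set. The window is the 250 bases before the annotated start of the gene in RefSeq (assembly GRCm38.p6), chr8:72318812-72319061, plus strand, 5′ to 3′. It holds none of the motifs searched here, which are given with Txnip, and therefore has no capitals.
Klf2: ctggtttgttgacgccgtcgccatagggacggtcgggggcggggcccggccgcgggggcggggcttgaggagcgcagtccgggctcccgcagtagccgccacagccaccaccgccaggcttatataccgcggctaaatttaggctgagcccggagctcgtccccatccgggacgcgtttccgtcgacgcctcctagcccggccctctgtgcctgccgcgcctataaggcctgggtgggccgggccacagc

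**Figure D2:**
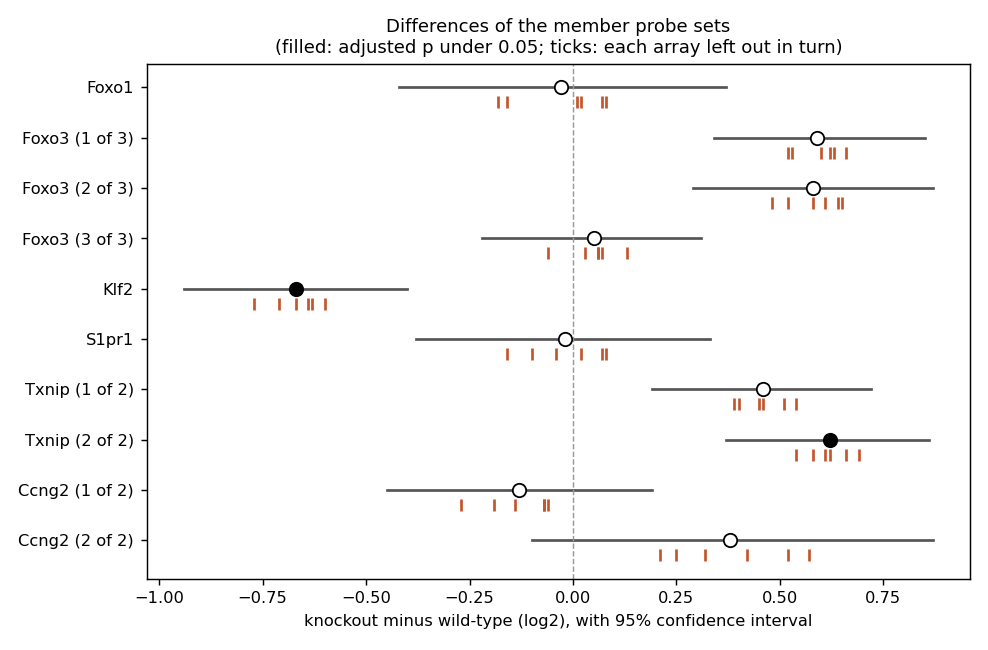
Knockout minus wild-type difference in log2 signal for each of the 10 probe sets, with the 95% confidence interval from limma as a line, a filled symbol where the adjusted p is under 0.05, and ticks for the difference with each array left out in turn. Klf2 lies at -0.67 and the called Txnip probe set at 0.62, and the intervals of Foxo1, S1pr1, Ccng2 and the third Foxo3 probe set include 0.

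Txnip, which binds thioredoxin and restrains glucose uptake, had separate groups on both probe sets, and 1 of them passed. The brighter one read 8.53, 8.65 and 8.75 in wild-type arrays and 9.12, 8.94 and 9.25 in knockout arrays. All knockout values were above the wild-type values, with means of 8.64 ± 0.11 and 9.10 ± 0.16 (SD, n = 3 each) and a difference of 0.46 (SE 0.11, interval 0.19 to 0.72), which did not pass (limma adjusted p = 0.125). The dimmer probe set read 6.97, 6.88 and 6.82 against 7.51, 7.36 and 7.65. Here too the groups were separate, the means were 6.89 ± 0.07 and 7.51 ± 0.15, and the difference of 0.62 (SE 0.11, interval 0.37 to 0.86, 1.53-fold) passed with a limma adjusted p of 0.0432. The knockout differences on the 2 probe sets were 0.16 apart. An exact permutation test gave p = 0.4, or 0.5 after adjustment over 5 pairs, and with 3 arrays against 3 it cannot go below 0.1. Without any 1 of the 6 arrays the limma adjusted p of the dimmer probe set was 0.078 to 0.151, with a variance trend in the limma fit it was 0.0982, and the mean of both probe sets differed by 0.54 (limma adjusted p = 0.0543).

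Genes that work with Txnip were taken from a list of thioredoxins and a thioredoxin reductase, the arrestin-domain relatives of Txnip and the glucose-sensing factors that drive its transcription. The list also holds the glucose transporters Slc2a1 and Slc2a3. Of 12 measured genes 2 were higher, 0 lower and 10 not called, with a median difference of -0.04. That is 16.7% called, against 1.67% of all genes. At an unadjusted limma p under 0.05, 4 were higher and 2 lower, against 16.4% of all genes in either direction. Mlxip, the MondoA factor that activates Txnip when sugar phosphates accumulate, read 7.00, 7.08 and 7.14 in wild-type arrays and 7.95, 8.0 and 8.55 in knockout arrays. Its groups were separate and it rose by 1.09 (SE 0.16, 2.13-fold, limma adjusted p = 0.0271). Arrdc4, an arrestin-domain relative of Txnip driven by the same factor, read 6.79, 6.64 and 6.96 against 7.59, 7.46 and 7.43. It rose by 0.70 (SE 0.11, 1.62-fold, limma adjusted p = 0.0325), also with separate groups. Thioredoxin itself, Txn1, differed by -0.33 (limma adjusted p = 0.289). The arrays read the mRNA of Mlxip and not the activity of its protein. The part of MondoA in the differences of Txnip and Arrdc4 was not tested.

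Neither of these calls was independent of single arrays. Mlxip passed only without knockout array 1 or knockout array 3, and its limma adjusted p was 0.0904 without knockout array 2 and 0.121, 0.107 and 0.063 without wild-type arrays 1, 2 and 3. Arrdc4 passed only without wild-type array 3 and was at 0.0649 to 0.139 without each of the others.

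The starts of Txnip and Arrdc4 are shown because both genes rose on a probe set and both are known to be read by FoxO or MondoA. Each window is the 250 bases before the RefSeq start on GRCm38.p6, 5′ to 3′ on the strand of the gene. The Txnip window is chr3:96557707-96557956, plus strand, and the Arrdc4 window is chr7:68749239-68749488, minus strand. Capitals mark the FoxO-binding motif GTAAACA, the E-box CACGTG and its variant CACGAG, which were searched on both strands.
Txnip: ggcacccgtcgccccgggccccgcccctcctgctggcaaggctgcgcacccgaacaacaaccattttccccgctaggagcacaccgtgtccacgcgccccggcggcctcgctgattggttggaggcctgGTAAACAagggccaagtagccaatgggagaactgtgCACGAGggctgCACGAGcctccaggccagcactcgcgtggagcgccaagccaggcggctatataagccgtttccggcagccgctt
Arrdc4: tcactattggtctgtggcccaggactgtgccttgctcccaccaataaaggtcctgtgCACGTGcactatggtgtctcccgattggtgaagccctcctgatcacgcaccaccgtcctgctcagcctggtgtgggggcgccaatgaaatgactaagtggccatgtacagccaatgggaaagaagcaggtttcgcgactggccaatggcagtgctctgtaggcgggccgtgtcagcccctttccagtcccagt

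The Txnip window holds GTAAACA from 121 to 115 bases before the start, and CACGAG at 85 to 80 and again at 74 to 69 bases before it. In the Arrdc4 window CACGTG lies 193 to 188 bases before the start. Over 32851 RefSeq windows of this length, GTAAACA occurred in 3.17%, CACGTG in 6.02% and CACGAG in 5.37%. Windows were given for 8 of the 9 genes, S1pr1 being the exception, and of these Txnip alone holds GTAAACA, while Irs2 holds CACGTG. The related forkhead motif GTAAATA occurred in 2.73% of all windows and in 0 of the 8. The shorter TAAACA (12.0% of all windows) was found in Txnip, and AAACAA (18.3%) in Txnip, Irs2 and Ccng2; in Txnip both overlap the GTAAACA match. A match describes the letters of the window and does not show that a factor binds there.

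Ccng2, an unconventional cyclin that slows the cell cycle with phosphatase PP2A and a classic target of FoxO, gave no call. Its brighter probe set read 8.27, 8.18 and 8.42 in wild-type arrays and 8.43, 8.04 and 8.01 in knockout arrays, with a difference of -0.13 (SE 0.14, interval -0.45 to 0.19, limma adjusted p = 0.806). The dimmer one read 5.43, 4.80 and 4.93 against 5.79, 5.15 and 5.36, with a difference of 0.38 (SE 0.21, interval -0.10 to 0.87, limma adjusted p = 0.546). Groups overlapped on both. An exact permutation test of the difference between the 2 probe sets gave p = 0.2, or 0.333 after adjustment over 5 pairs. With 3 arrays against 3 that test cannot go below 0.1, so it cannot decide at 0.05 whether the opposite signs differ. Its relatives and partners gave 0 limma calls among 3 measured genes, with 1 higher at an unadjusted p under 0.05. Ppp2r5c, a regulatory subunit of PP2A, had the smallest p, with a difference of 0.23 (limma adjusted p = 0.319).

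Other FoxO target genes, taken from a list of 34, held the larger changes. That list was chosen with earlier results of these data known, so its counts do not test FoxO targets as a group. Of the 31 measured, 5 rose, 0 fell and 26 were not called, with a median difference of 0.15. That is 16.1% called, against 1.67% of all genes. At an unadjusted limma p under 0.05, 14 were higher and 1 lower, against 16.4% of all genes in either direction. The 5 that rose were Ddit4, Klf9, Gadd45a, Fbxo32 and Sesn1.

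Ddit4, also named REDD1, which restrains mTORC1 under stress, rose most among the listed FoxO targets. It read 8.58, 7.97 and 8.09 in wild-type arrays and 11.10, 11.14 and 10.98 in knockout arrays. The groups lay far apart, with a difference of 2.86 (SE 0.16, 7.27-fold, limma adjusted p = 0.000425), and it passed with each array left out in turn. Gadd45a, a growth arrest and DNA damage response protein, read 5.85, 5.75 and 5.74 against 6.71, 7.05 and 7.21. It rose by 1.21 (SE 0.14, 2.32-fold, limma adjusted p = 0.00887) with separate groups, and passed in 5 of 6 fits that leave out an array, missing without knockout array 2 (0.0651).

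Klf9, a Krüppel-like factor, read 6.78, 6.49 and 6.95 in wild-type arrays and 8.29, 8.53 and 9.08 in knockout arrays. The groups were separate, and it rose by 1.89 (SE 0.21, 3.71-fold, limma adjusted p = 0.00867). Averaged over its 5 probe sets the difference was 0.94. The call was lost without knockout array 2 (limma adjusted p = 0.0536) or wild-type array 1 (0.0521). Its start is shown because it holds the FoxO-binding motif GTAAACA, again in capitals, and was chosen for that. Of the 5 risen FoxO targets 4 have RefSeq windows, Fbxo32 being the other, and Klf9 alone of these 4 holds the motif; Ddit4, Gadd45a and Sesn1 do not. The window is chr19:23140976-23141225, plus strand, of GRCm38.p6 in RefSeq, and the motif lies 100 to 94 bases before the start.
Klf9: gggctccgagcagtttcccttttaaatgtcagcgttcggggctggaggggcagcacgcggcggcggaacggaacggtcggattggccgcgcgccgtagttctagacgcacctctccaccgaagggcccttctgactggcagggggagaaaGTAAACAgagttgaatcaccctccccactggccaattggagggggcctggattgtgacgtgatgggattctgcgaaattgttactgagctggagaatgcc

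Fbxo32, the ubiquitin ligase subunit atrogin-1 of muscle wasting, read 6.32, 6.38 and 6.54 in wild-type arrays and 7.20, 7.37 and 7.69 in knockout arrays. It rose by 1.01 (SE 0.14, 2.01-fold, limma adjusted p = 0.0198) with separate groups, and did not pass without knockout array 2 (0.0969), wild-type array 1 (0.103) or wild-type array 2 (0.0888). Sesn1, a sestrin that dampens mTORC1, read 7.17, 7.62 and 7.48 against 8.47, 8.39 and 8.13. Its groups were separate and it rose by 0.91 (SE 0.14, 1.87-fold, limma adjusted p = 0.0327), a call held with 1 array left out only without knockout array 3. The whole list counted 1 rise without knockout array 2 and 3 without wild-type array 1 or wild-type array 2.

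**Figure D3:**
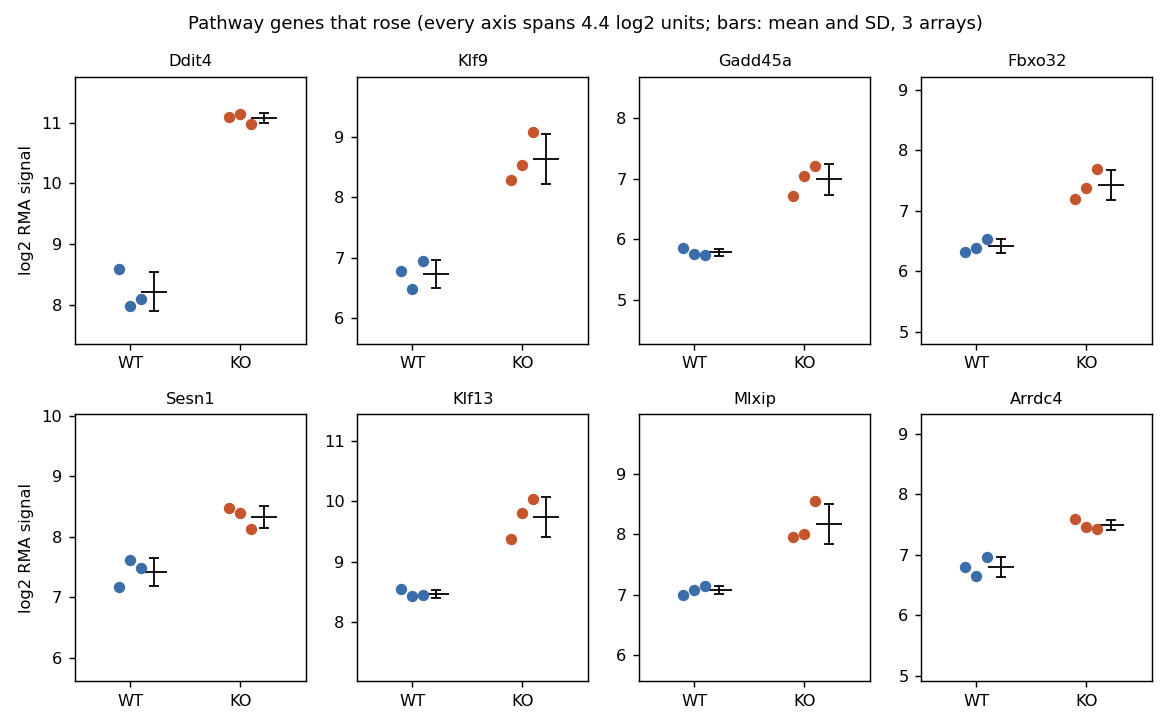
Log2 signal on each array of the genes that rose among the listed FoxO targets, Krüppel-like factors and Txnip relatives, with wild-type (WT) and knockout (KO) arrays as points, bars for the mean and SD of 3 arrays, and axes of equal span. On each of these genes the 3 knockout points lie above the 3 wild-type points, with the widest gap on Ddit4, from 8.22 to 11.08.

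FoxO targets without a call covered both arrest and death genes and antioxidant genes. Among those named after their values were seen, Bcl2l11, which encodes the pro-death protein BIM, had the widest difference without a call, 1.55 for the brightest probe set (limma adjusted p = 0.111, SE 0.37). That probe set read 9.15, 9.21 and 9.74 in wild-type arrays and 10.02, 11.12 and 11.60 in knockout arrays, so the groups were separate while the knockout values spread over more than a unit. All 5 Bcl2l11 probe sets were separate in the same direction, with differences of 1.42 to 2.03, and 1 of them passed (limma adjusted p = 0.0492). With knockout array 1, the lowest of the knockout arrays, left out, the brightest probe set had a limma adjusted p of 0.00942, and with other arrays left out it reached 0.347. The cell cycle inhibitor Cdkn1b differed by 0.49 (limma adjusted p = 0.081) and the transcriptional repressor Hbp1 by 0.52 (0.0961). Bcl6, Sod2, Cat and Pdk4, a repressor, a pair of antioxidant enzymes and a mitochondrial kinase, differed by 0.00, -0.05, 0.12 and 0.04, and Sesn3 by -0.14. Pdk4 averaged 3.03 in wild-type and 3.08 in knockout arrays, above only 1.25% of probe sets, and may stand for an unexpressed transcript.

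Among the Krüppel-like factors other than Klf2, 2 of 9 measured genes rose, 0 fell and 7 were not called, with a median difference of 0.48. That is 22.2% called, against 1.67% of all genes. At an unadjusted limma p under 0.05, 4 were higher and 0 lower, against 16.4% of all genes in either direction. Klf13 read 8.55, 8.43 and 8.45 in wild-type arrays and 9.38, 9.81 and 10.04 in knockout arrays. It rose by 1.27 (SE 0.16, 2.40-fold, limma adjusted p = 0.0139) with separate groups, and its probe sets averaged together rose by 0.80 (0.0319). The call was lost without knockout array 2 (0.0932), wild-type array 1 (0.0726) or wild-type array 2 (0.0691). The other rise was Klf9. Klf3 and Klf11 differed by 0.57 (limma adjusted p = 0.154) and 0.48 (0.115), and Klf6 by -0.02 (0.982).

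Upstream of FoxO, the relay from insulin and growth factor receptors through PI3-kinase to AKT gave 0 calls in either direction among 19 measured genes by limma adjusted p. At an unadjusted p under 0.05, 7 were higher and 1 lower, against 16.4% of all genes in either direction, and the median difference was 0.20. The smallest p belonged to Pik3r5, a regulatory subunit of PI3-kinase gamma, with means of 8.38 and 8.89 and a difference of 0.51 (SE 0.13, limma adjusted p = 0.123). The kinases Akt1 and Akt2 differed by -0.08 and 0.36 (limma adjusted p of Akt2 0.156). The inhibitors of the relay gave 0 calls among 7, with 1 higher and 2 lower at an unadjusted p under 0.05 and a median of -0.02. Trib3, a pseudokinase that binds AKT, had the smallest p, with a difference of -0.29 (limma adjusted p = 0.276).

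Proteins that hold, export, modify or degrade FoxO gave 0 calls among 17 measured genes, with 1 higher and 4 lower at an unadjusted p under 0.05 and a median of -0.06. Foxk2, a forkhead factor that binds related motifs, had the smallest p, with a difference of -0.40 (SE 0.10, limma adjusted p = 0.121). The receptor relay of interleukin-7 and TSLP, in which Il7r takes part, gave 0 calls among 9 measured genes, with 3 higher and 2 lower at an unadjusted p under 0.05 and a median of -0.03. The smallest p there belonged to Socs2, a suppressor of cytokine signalling, with a difference of -1.04 (SE 0.22, limma adjusted p = 0.0743). It passed with a trended variance (0.0427). Averaged over its 4 probe sets, 1 positive and 3 negative, it differed by -0.55 (0.125).

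**Figure D4:**
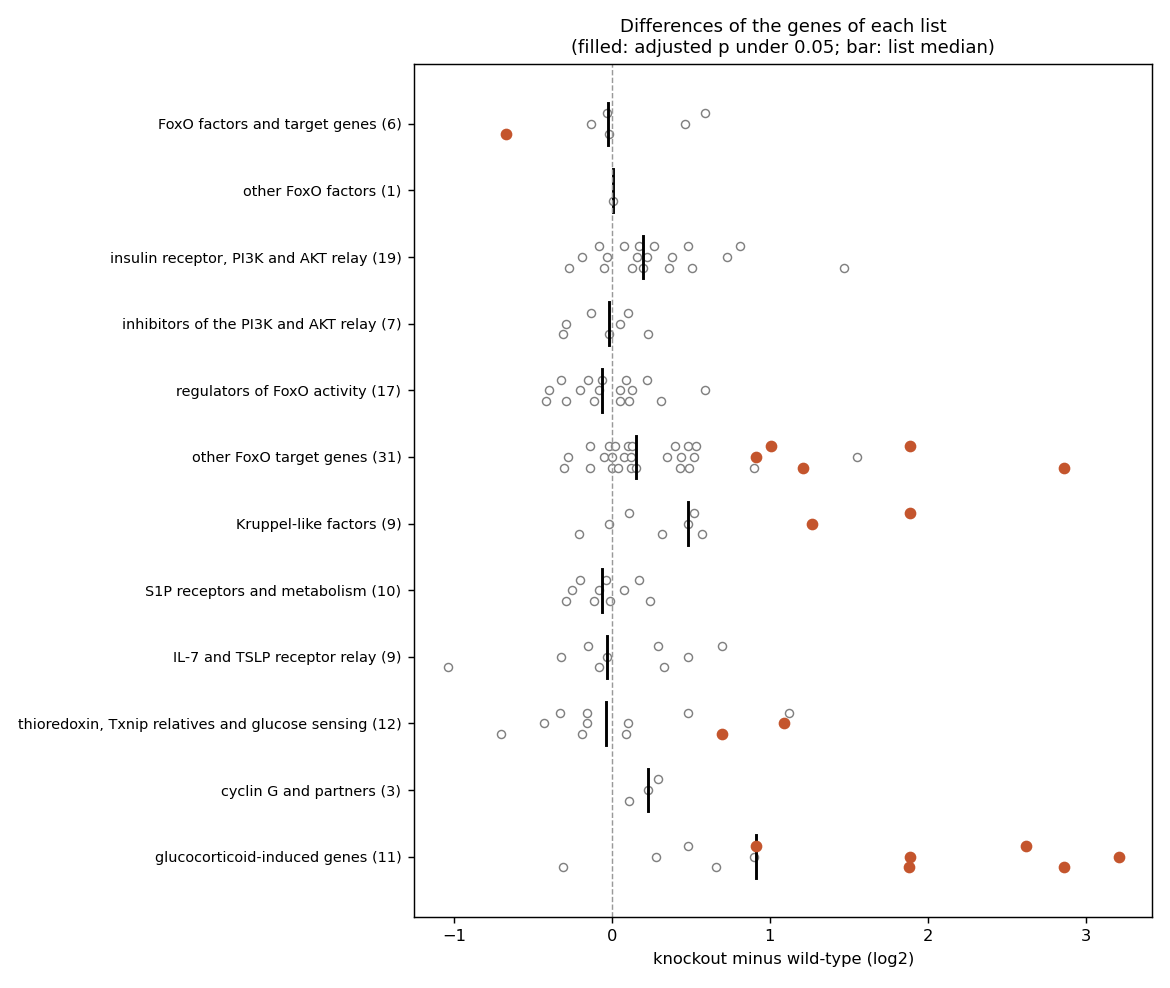
Knockout minus wild-type difference in log2 signal of every measured gene in each pathway list, 1 point per gene on its brightest probe set, filled where the limma adjusted p is under 0.05, with a bar at the list median and the number of genes in brackets. The FoxO target list reaches up to Ddit4 at 2.86 around a median of 0.15, and the insulin and PI3-kinase list holds no called gene around a median of 0.20.

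Glucocorticoid-induced genes were listed as well, since several FoxO targets also answer to the glucocorticoid receptor. This list too was chosen with earlier results of these data known. Of 11 measured genes 6 rose, 0 fell and 5 were not called, with a median difference of 0.91. That is 54.5% called, against 1.67% of all genes. At an unadjusted limma p under 0.05, 10 were higher and 1 lower, against 16.4% of all genes in either direction. Fkbp5, a co-chaperone of that receptor, rose by 3.21 (SE 0.22, 9.26-fold, limma adjusted p = 0.000966) and passed with each array left out in turn. Mt1, a metallothionein, rose by 2.62 (SE 0.28, limma adjusted p = 0.007), or 1.70 averaged over its probe sets, and missed the threshold without knockout array 2 (0.0523). Zbtb16, a zinc finger factor, rose by 1.88 (0.0173; 1.16 and 0.0622 averaged over its probe sets), and Cebpd, a bZIP factor, by 0.91 (0.0112); Zbtb16 did not pass without any 1 wild-type array, nor Cebpd without knockout array 2, wild-type array 1 or wild-type array 2. The other two that rose were Ddit4 and Klf9.

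The lists share members. Ddit4, Klf9 and Tsc22d3 stand in both the FoxO target list and the glucocorticoid list, 9.68% of the measured genes of the former and 27.3% of the latter, and 2 of these 3 were called. Tsc22d3, also named GILZ, differed by 0.90 (limma adjusted p = 0.0885). Of the 5 FoxO targets that rose, Gadd45a, Fbxo32 and Sesn1 stand in the FoxO target list without being in the glucocorticoid list. Without knockout array 2 the glucocorticoid list counted 3 rises. Whether the changes of the shared genes go with FoxO or with glucocorticoid was not tested.

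Markers of other cells also moved between the groups. Of 13 macrophage markers 3 rose, Cd163 by 1.58, Cd5l by 1.51 and Mertk by 1.16 (limma adjusted p = 0.00933, 0.0166 and 0.0115), 0 fell and 3 lay below 5. That is 23.1% called, against 1.67% of all genes. At an unadjusted limma p under 0.05, 7 were higher and 1 lower, against 16.4% of all genes in either direction. Their median difference was 0.68, their mean log2 level was 7.11 to 7.21 in wild-type and 7.35 to 7.86 in knockout arrays, and their summed linear signal was 4415 to 4897 in wild-type arrays and 3975 to 5848 in knockout arrays. The complement genes C1qa, C1qb and C1qc differed by 0.70, 0.84 and 0.68 and the Fc receptor Fcgr1 by 0.81 without passing (limma adjusted p = 0.184, 0.25, 0.19 and 0.0721), with separate groups on all but C1qb. Adgre1 and Spic differed by -0.28 and 0.00. The list counted 0 rises without knockout array 2, 1 without wild-type array 1 or wild-type array 2, and 7 without knockout array 3. Among 6 erythroid markers Hbb-b2 fell by 3.01 (limma adjusted p = 0.0325, SE 0.48). Averaged over its 3 probe sets it differed by -1.09 (0.0558), and the call was lost without knockout array 2 (0.119), knockout array 3 (0.0742), wild-type array 1 (0.141) or wild-type array 2 (0.119). The summed erythroid signal was 666 to 2637 in wild-type arrays and 119 to 271 in knockout arrays.

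In the remaining lists 0 markers were called by limma adjusted p. At an unadjusted p under 0.05 these held 3 higher and 4 lower of 14 dendritic cell markers, 0 of 12 T cell markers, 1 higher of 7 NK cell markers, 3 higher and 1 lower of 10 monocyte and neutrophil markers, 2 higher and 1 lower of 10 endothelial markers and 0 of 6 plasmacytoid dendritic cell markers. Summed signals of monocyte and neutrophil markers were 648 to 945 in wild-type arrays and 908 to 2220 in knockout arrays, with S100a8 at a difference of 2.28 (limma adjusted p = 0.147) and Cx3cr1 at -1.02 (0.0654). Cd8a, carried by a subset of dendritic cells, differed by -1.47 on its brightest probe set, from 11.09 ± 0.36 to 9.62 ± 0.56 (SD, n = 3 each), with separate groups (limma adjusted p = 0.062). Of its 3 probe sets, all lower in knockout arrays, 1 passed, and the brightest passed with a trended variance (0.0216), with array weights (0.0408), with the dimmer part of all probe sets left out (0.0475) and without knockout array 1 (0.0386). The dendritic cell list then counted 2, 1, 1 and 2 lower genes. Its other lower markers at an unadjusted p under 0.05 were Zbtb46 (-0.75, limma adjusted p = 0.0621), Xcr1 (-0.81, 0.14) and Irf8 (-0.59, 0.121). Its higher ones were Flt3 (0.35, 0.284), Dpp4 (0.32, 0.367) and Id2 (0.26, 0.354). Groups were separate on each of these. NK cell sums were 644 to 814 and 800 to 987, and Gzma had the smallest p (difference 0.59, limma adjusted p = 0.293). Endothelial sums were 353 to 391 and 381 to 400, and Pecam1 had the smallest p (difference 0.94, limma adjusted p = 0.0681). Plasmacytoid sums were 1124 to 1435 and 1020 to 1669, and Ly6d had the smallest p (difference -0.59, limma adjusted p = 0.545). Among T cell markers Cd3d had the smallest p (difference -0.25, limma adjusted p = 0.44). The part of these cells in the differences of Klf2, Txnip, Foxo3 and the FoxO targets was not tested.

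**Figure D5:**
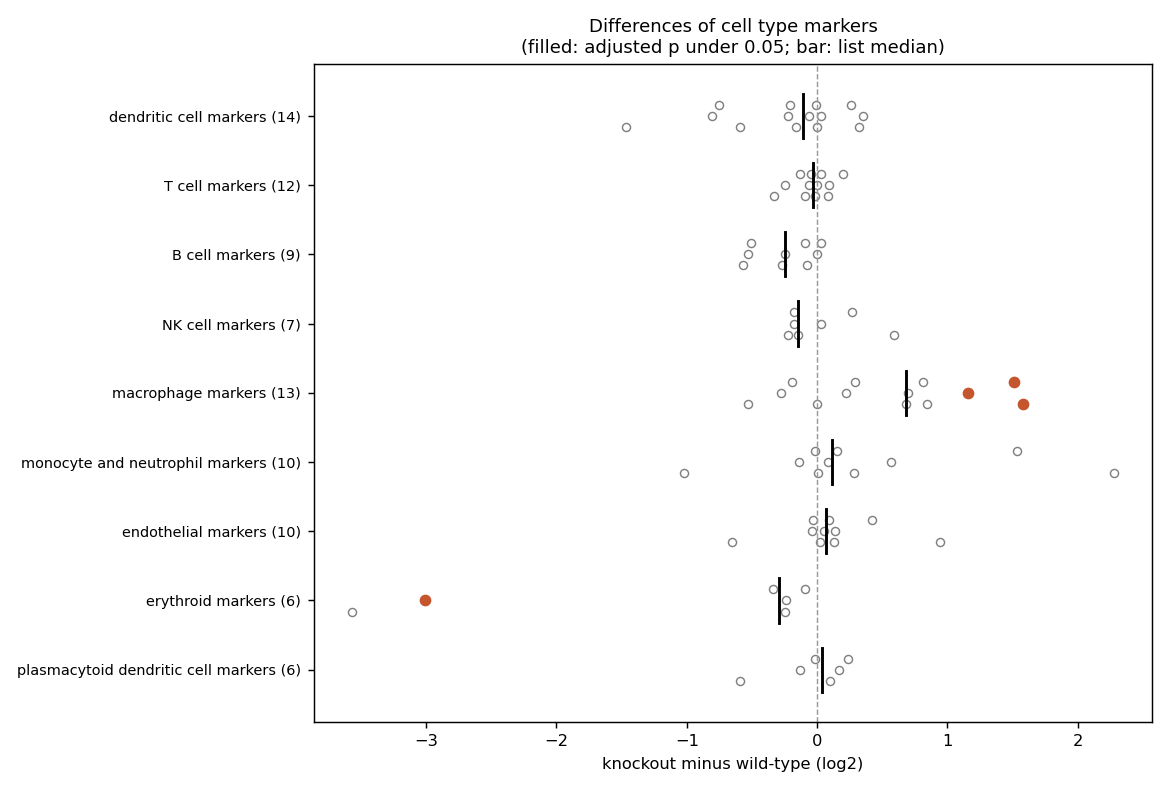
Knockout minus wild-type difference in log2 signal of every measured gene in each cell type marker list, 1 point per gene, filled where the limma adjusted p is under 0.05, with a bar at the list median and the number of genes in brackets. The 3 filled macrophage points lie at 1.16 to 1.58, the filled erythroid point is Hbb-b2 at -3.01, and the open point beyond it is Hba-a1 at -3.57.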

How the data were processed

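RNA of 6 samples (3 wild-type, 3 knockout) was hybridised to 1 Affymetrix array each. The deposited log2 values were made by the authors in Affymetrix Expression Console 1.1 by RMA, as the submitters' processing notes record; RMA corrects background, normalizes by quantiles and summarises probes, and leaves no detection call, so differences of dim genes are compressed. Of 45141 probe sets 104 controls were left out. Symbols came from the platform annotation, which can be old: 28898 probe sets had 1 symbol, 551 several and 15588 none. The genome build of the array files is not given in the sources used here.

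Differences were fitted with limma 3.58.1 (lmFit, eBayes) in R 4.3.3, without covariates, with adjustment over 45037 probe sets, and the step was tested on simulated data. Differences between probe sets of a gene were compared by exact permutation. The genes and lists were chosen with earlier results of these data known. The text names all 9 genes, Map3k7 and, from each list, up to 6 called genes with the largest differences or otherwise the gene with the smallest p; others were chosen after their values were seen. Alternatives covered filters, normalization, probe set choice, variance models, array weights, thresholds, the replicate number as a block and each array left out. Figures used matplotlib 3.10.9 in Python 3.11.15.

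Sample numbers 1, 2 and 3 recur in both groups. Deviations from the group means correlated at 0.0816, 0.152 and 0.373 between same-numbered samples over probe sets. Between differently numbered samples the correlations were 0.0966, -0.13, 0.28, -0.328, -0.299 and -0.196. These values do not settle whether the numbers mark pairs. The labels state no pairing, so the main fit took none, and a fit with the number as a block is given below.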

Additional observations from a re-analysis of the deposited data

How the results depend on the processing

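Klf2 lost its call after another quantile normalization, at a threshold of 0.01 and with each array left out: the number of genes lower was then 0, and 0 to 0 over the fits with an array left out, and likewise 0 for probe sets. The Txnip probe set lost its call with a trended variance, at 0.01 and with each array left out (0 to 0 higher). With each gene read on the probe set of smallest p, 1 gene was higher, Txnip (0.62, limma adjusted p = 0.0432). At a threshold of 0.1, 1 gene was higher on its brightest probe set, Foxo3 (limma adjusted p = 0.0563), and so were 3 probe sets. The cause of the lost calls was not tested. Differences that changed sign were those of Ccng2 (0.13 as the mean of its probe sets, 0.38 on the smallest-p one) and, with an array left out, Foxo1 (-0.18 to 0.08), the third Foxo3 probe set (-0.06 to 0.13), S1pr1 (-0.16 to 0.08) and Foxo4 (-0.11 to 0.15; -0.01 after quantile normalization). Of 171 alternative settings of the 10 probe sets, 142 kept direction and side of the threshold, 16 lost the call, 3 gained one and 10 changed sign. The other thresholds and the smallest-p choice reuse the main fit, and all 3 gains came from these. Klf2 kept its call in 10 of 18 settings and the called Txnip probe set in 8 of 16. The other probe sets had no call to lose. With the replicate number as a block, which is a shared number and not a known pairing, 0 genes were higher and 1 was lower, as without it, with a limma adjusted p of 0.0338 for Klf2; 2 genes of the insulin and PI3-kinase list then passed, as did Socs2 (0.0298), Cd8a (0.013), Cx3cr1 (0.0415) and Pecam1 (0.0387), and the dendritic cell list counted 3 lower genes. Foxo1 and S1pr1 lie near the array median, where RMA signals over background limit what can be seen.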

Other observations

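Several genes of insulin signalling and sugar uptake had wide differences without passing the threshold, and are named here after their values were seen. The insulin receptor Insr differed by 0.81 for the brightest probe set (limma adjusted p = 0.195, SE 0.24), and its 3 probe sets ranged from -0.07 to 0.81. The related receptor Igf1r differed by 1.47 (SE 0.43, limma adjusted p = 0.189), with 0.05 to 1.47 over 4 probe sets and separate groups on 3 of them. The glucose transporters Slc2a1 and Slc2a3 had opposite signs between them at the brightest probe sets, 1.12 (SE 0.30, limma adjusted p = 0.154) and -0.70 (SE 0.16, limma adjusted p = 0.107). The 2 probe sets of Slc2a1 gave 0.94 and 1.12, and the 4 of Slc2a3 gave -0.76 to 0.05. Insr and Igf1r were already counted in the insulin and PI3-kinase list, and Slc2a1 and Slc2a3 in the list taken with Txnip.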
